A study of Schmidtea mediterranea with 24 samples.

Results

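Planarian cells that were negative for mmp-1 were compared between tail fragments taken 6 h after amputation and intact worms. The comparison rests on 6 of the 18 sorted-cell RNA-seq libraries in a series of 24 samples. They were chosen by their labels alone, as the 3 mmp-1- libraries of 6 h tails and the 3 mmp-1- libraries of intact worms. The animals were wild-type *Schmidtea mediterranea*, a freshwater flatworm, and were starved for 11 days before use. In the intact group whole uninjured worms were dissociated, and in the 6 h group tail fragments were dissociated 6 h after the cut. Each group had 3 biological replicates, and each replicate pooled 100 worms, so that the spread between single animals was not measured. Cells were fixed during dissociation, hybridized in solution with fluorescent probes against mmp-1 RNA and sorted, and 1000 cells of the negative gate went into each library. The mmp-1+ libraries of the same times, the 48 h mmp-1- libraries and 4 spatial tissue sections served as reference points.

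Planarians rebuild missing body parts from neoblasts, dividing stem cells spread through most of the body, and the wound itself first sets off a broad transcriptional response in epidermis, muscle and neoblasts within hours. Later the response separates into programmes for the tissue that has to be replaced. A tail fragment has lost the head with its eyes and brain ganglia, and it usually lacks the pharynx, which lies in the trunk. mmp-1 encodes a matrix metalloproteinase, an enzyme class that cuts proteins of the extracellular matrix, and the mmp-1- gate is meant to collect the cells without its RNA, stem cells included. The intact libraries came from whole worms and the 6 h libraries from tails. Injury and the loss of head and trunk tissue therefore cannot be told apart in any difference below. Likewise, in these bulk libraries fewer cells of a type and less RNA per cell cannot be told apart.

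The 6 libraries held 57892537 to 63524266 counts assigned to genes, and a count was found for 33922 to 34076 of the 36035 identifiers in the table. Unmapped reads were 14.3% to 16.1% of the reads in these libraries. The 10 most abundant transcripts took 25.7% to 28.5% of the counts in the tail libraries and 25.7% to 32.2% in the intact libraries. The first principal component carried 41.7% of the variance among the 6 libraries and placed the 3 tail libraries on one side and the 3 intact libraries on the other. Transcripts are named here by their SMED identifiers. The deposited table has no gene names, so mmp-1 itself and the known cell type and wound genes were not analysed here. Levels are CPM (counts scaled to a common library size) after TMM, a scaling that trims extreme genes, and they are not corrected for transcript length.

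At 6 h the mmp-1- cells differed from intact in 3004 of 31435 tested transcripts, or 9.56% (edgeR quasi-likelihood test, Benjamini-Hochberg adjusted p under 0.05, here "called"). Of these, 1434 were higher in the tails, 4.56% of those tested, and 1570 were lower, 4.99%. The median called increase was 1.48-fold and the median called decrease 1.78-fold, while the median over all tested transcripts was 0.0042 on the log2 scale. Large decreases outnumbered large increases: 638 called transcripts fell at least 2-fold and 309 rose at least 2-fold. At a 4-fold limit the counts were 287 lower and 61 higher, and at an 8-fold limit 174 and 22. In 16 of the called decreases and 1 of the called increases all 3 libraries of the lower group held no count. With those set to a floor of 3 counts per library, the 2-fold counts and both medians were the same and the 8-fold counts were 164 lower and 21 higher.

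These counts depended on how the libraries were scaled and on which libraries were used. When edgeR was fitted to the 6 libraries alone, 1646 transcripts were called, 682 of them higher. With scaling by total counts, 863 transcripts were called higher, and increases made up 36.8% of the calls in place of 47.7%. Without replicate 2 of the 6 h tails, 945 were called higher, and 2064 in all. A total of 1459 calls, 634 higher and 825 lower, kept their direction and their call whichever of the 6 libraries was left out.

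**Figure D1:**
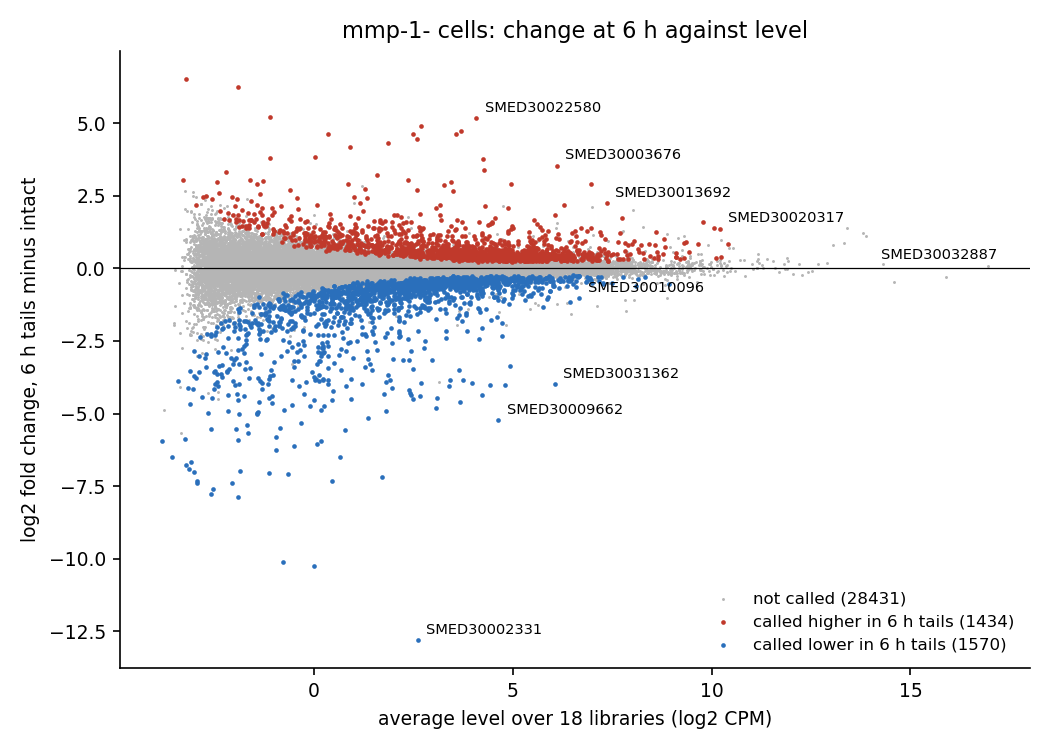
The log2 fold change of 6 h tails minus intact in mmp-1- cells (vertical axis) is plotted against the average level over the 18 sorted-cell libraries in log2 CPM (horizontal axis), 1 point per tested transcript. Red points are the 1434 transcripts called higher and blue points the 1570 called lower. The deepest decreases lie among transcripts of low average level, and that average includes the tail libraries in which they fell.

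The 3 libraries of 1 group lay entirely above or below those of the other in 7400 transcripts, 23.5% of those tested. In 3631 the tails were higher, which is 11.6%, and in 3769 they were lower, which is 12%. With 3 libraries a side such separation also arises without a difference between the groups, so these are not counts of changed transcripts. Among the called transcripts 1402 of the increases and 1525 of the decreases had groups that did not overlap, and 77 called transcripts had groups that did. The data also bounded the size of the change for many transcripts, and called transcripts are included in these counts. The 95% interval of the log2 fold change lay within -1 and 1 in 22498 transcripts, 71.6% of those tested, and within -0.5 and 0.5 in 11525, or 36.7%.

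Increases and decreases differed in the level at which they were found. When the tested transcripts were split into 5 equal parts of 6287 by average level, the lowest part, up to 0.508 CPM, held 65 called increases and 173 called decreases. The second part held 113 and 262, and the third 221 and 448. In the fourth part, from 5.42 to 20.5 CPM, the counts were 412 and 448. The highest part, above 20.5 CPM, held 623 increases and 239 decreases. The sizes ran the other way. The median called increase was 3.58-fold in the lowest part and 1.34-fold in the highest, and the median called decrease 7.52-fold and 1.36-fold. The median standard error of the log2 fold change fell from 0.494 to 0.0993 over the same range, so a small change could be called at high level and not at low level. Under total-count scaling the highest part held 340 increases and 247 decreases, so the excess of increases there was smaller, and the lowest part held 50 and 166.

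**Figure D2:**
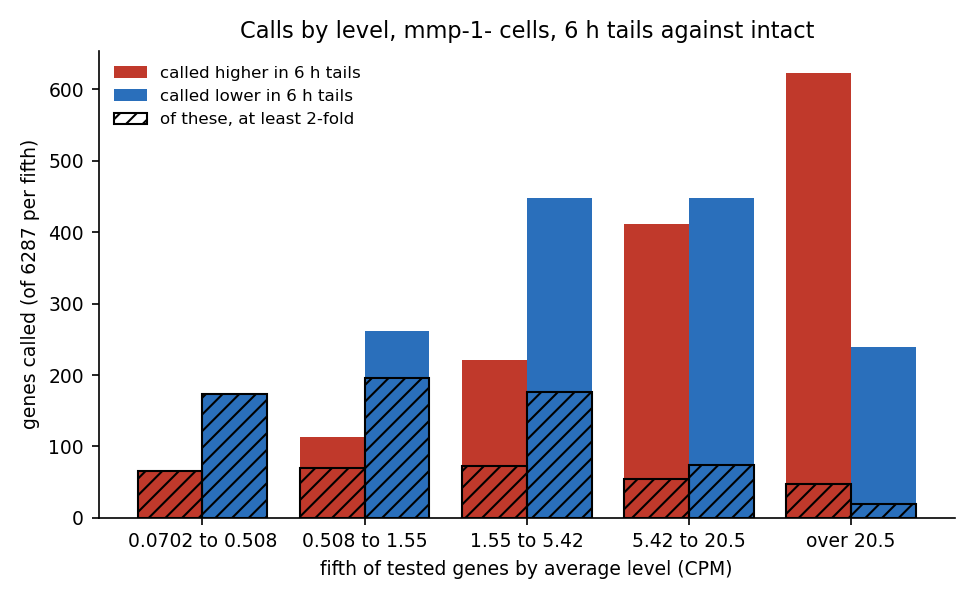
Bars give the number of called transcripts (vertical axis) in each of 5 equal parts of the tested transcripts ordered by average CPM (horizontal axis), red for higher and blue for lower in 6 h tails, and the hatched part is at least 2-fold. Decreases outnumber increases in the lowest 3 parts, 173 against 65 in the first, and increases outnumber decreases in the highest, 623 against 239.

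Called increases took 4.94% to 5.12% of all assigned counts in the intact libraries and 7.17% to 7.83% in the tail libraries. Called decreases took 2.72% to 2.93% in the intact libraries and 1.73% to 1.77% in the tails. The transcripts that were at least 2-fold lower were a small part of the RNA, 0.454% to 0.534% of the counts in intact worms and 0.126% to 0.141% in tails. Those at least 2-fold higher went from 0.461% to 0.490% of the counts to between 1.196% and 1.28%. These shares describe lists chosen on the same libraries. The 174 transcripts that were at least 8-fold lower had a median level of 1.52 CPM in intact worms and 0.0718 CPM in tails. The 22 that were at least 8-fold higher had a median of 0.211 CPM in intact worms and 3.98 CPM in tails.

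Among transcripts with an average level of at least 4 on the log2 CPM scale, the strongest increase was that of SMED30022580. It had 0.475, 1.57 and 1.03 CPM in the 3 intact libraries and 41.5, 37.0 and 32.5 CPM in the 3 tail libraries, from 35 to 103 counts in the former and 2056 to 2741 in the latter. All tail libraries were far above all intact libraries, and the log2 ratio of tails to intact was 5.18 with SE 0.35, and edgeR gave an adjusted p of 1.00e-08. SMED30028552 had 0.855, 0.702 and 0.886 CPM in intact worms against 11.7, 9.51 and 12.4 CPM in tails (log2 ratio 3.77 with SE 0.34, adjusted p 4.44e-07 by edgeR). The 3 intact values of SMED30003676 were 4.02, 4.76 and 5.29 CPM and its tail values 57.9, 36.6 and 69.2 CPM (3.54 with SE 0.31, adjusted p 3.25e-07 by edgeR). In these transcripts the libraries of each group stayed close together compared with the distance between the groups.

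SMED30034500 rose from 2.97, 3.05 and 4.55 CPM to 33.8, 40.1 and 36.7 CPM, a 10.5-fold change (log2 3.39 with SE 0.17, adjusted p 2.15e-10 by edgeR). SMED30002813 rose from 1.90, 2.49 and 2.66 CPM to 16.5, 18.4 and 17.2 CPM, or 7.41-fold. SMED30013692 was at 71.8, 64.3 and 61.8 CPM in intact worms and at 324, 314 and 298 CPM in tails, 4.73-fold higher. For SMED30002663 the values were 32.4, 36.9 and 30.6 CPM and 148, 162 and 142 CPM, 4.52-fold higher. Each of these 4 had tail libraries that agreed within a narrow range, and each stayed called under all alternatives run.

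SMED30015528 also met the size rule for the 8 strongest increases, but its libraries scattered. Intact libraries had 16.9, 76.6 and 12.0 CPM, and tail libraries 309, 130 and 350 CPM. Replicate 2 was the highest intact library and the lowest tail library. The log2 ratio of tails to intact was 2.90 with SE 0.89, and edgeR gave an adjusted p of 0.0443; the ratio was 4.19 without replicate 2 of the intact group. The call was lost in 5 of 15 alternatives, without replicate 1 or 3 of either group and with robust dispersion estimates, with an adjusted p of 0.00584 to 0.153 over the alternatives. In mmp-1+ cells the level was 178 ± 106 CPM in intact worms and 240 ± 147 CPM in 6 h tails (SD, n = 3 each).

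**Figure D3:**
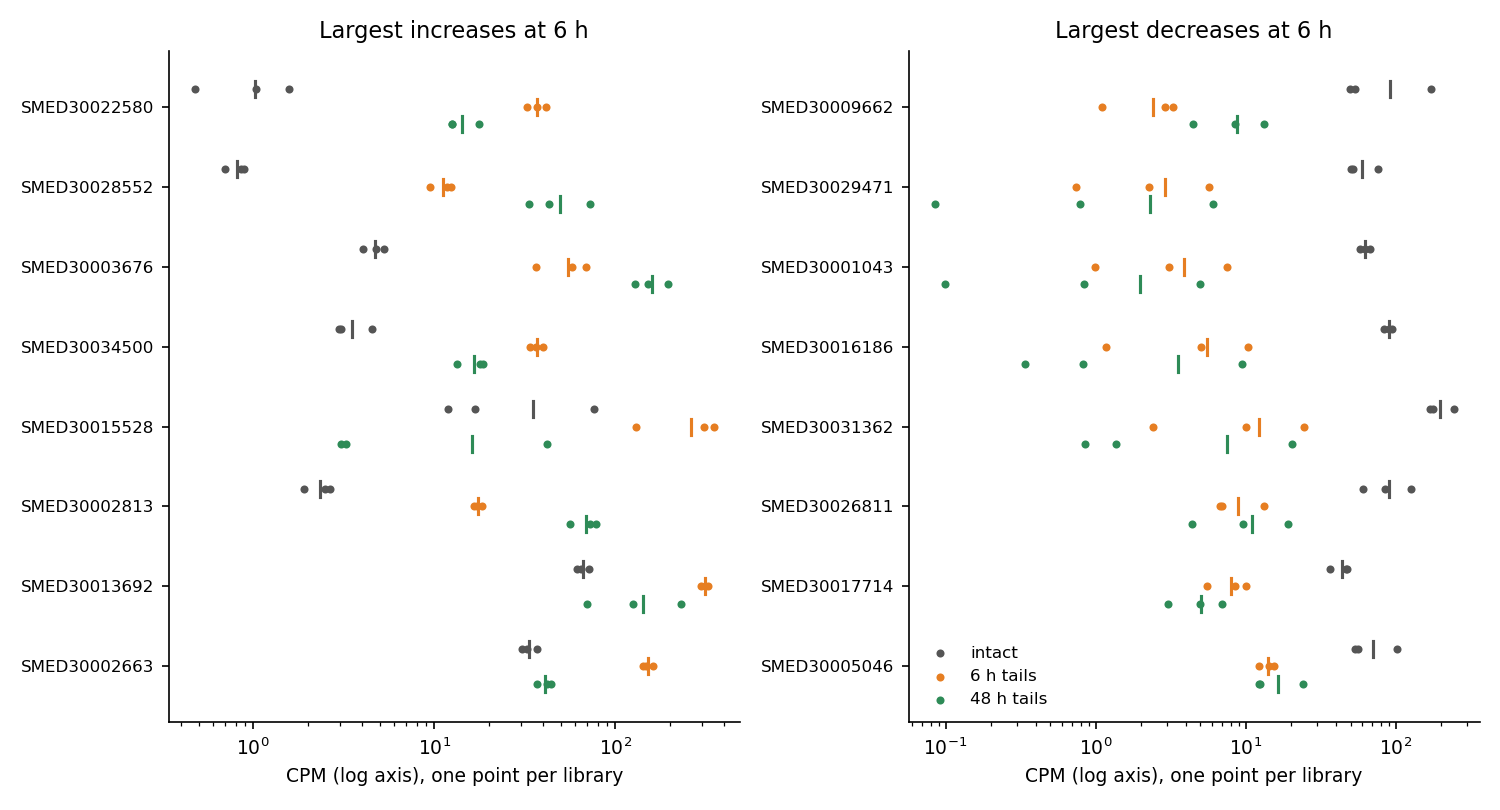
Each point is the level of 1 mmp-1- library in CPM on a log axis, for the 8 strongest increases (left) and decreases (right) at 6 h; short bars are group means, and colours mark intact worms, 6 h tails and 48 h tails. Tails and intact libraries do not overlap in any of the 16 transcripts, which was a condition for choosing them. At 48 h the increases part ways, with SMED30028552 at 33.3 to 72.4 CPM and SMED30002663 at 36.8 to 43.9 CPM.

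At 48 h the 8 strongest increases did not stay at their 6 h level. The 48 h and 6 h tail groups are set against each other here, a comparison in which 9.75% of tested transcripts were called, and which shares the 6 h libraries with the comparison above. SMED30028552 went on to 42.8, 72.4 and 33.3 CPM, SMED30003676 to 152, 196 and 128 CPM, and SMED30002813 to 78.4, 72.4 and 56.5 CPM. In all 3 the 48 h libraries lay above the 6 h libraries, with log2 differences of 2.15, 1.54 and 1.99 (edgeR adjusted p 4.44e-05, 0.00137 and 4.63e-07). The other 5 were lower at 48 h than at 6 h. SMED30022580 had 17.8, 12.5 and 12.6 CPM at 48 h, a log2 difference of -1.37 from 6 h (edgeR adjusted p 0.00308). SMED30034500 had 17.9, 13.4 and 18.5 CPM (-1.15, adjusted p 6.06e-05). Both were still far above intact worms. SMED30002663 had 36.8, 41.9 and 43.9 CPM at 48 h, against 30.6 to 36.9 CPM in intact worms, and the 48 h libraries were not called different from intact (log2 fold change 0.30, edgeR adjusted p 0.0914), in a comparison that called 17.6% of tested transcripts. SMED30015528 had 3.05, 3.27 and 42.0 CPM at 48 h and SMED30013692 had 70.1, 126 and 230 CPM, both with wide spread between libraries.

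The increases with the largest gain in CPM were of smaller fold. SMED30020317 had 734, 754 and 632 CPM in intact worms and 1910, 1574 and 1974 CPM in tails, 2.57-fold higher (log2 1.36 with SE 0.14, adjusted p 2.52e-06 by edgeR). SMED30002262 rose from 490, 476 and 417 CPM to 1577, 1134 and 1449 CPM, or 3.01-fold. For both, replicate 2 was the lowest of the tail libraries, and both were lower again at 48 h, at 942 to 1293 CPM and 712 to 1008 CPM. SMED30003809 went from 820, 868 and 866 CPM to 1615, 1511 and 1464 CPM, 1.80-fold higher. SMED30005835 went from 359, 436 and 428 CPM to 1104, 1066 and 1057 CPM, 2.64-fold higher, and reached 1478 to 2228 CPM at 48 h. These 4 transcripts were chosen among called increases in which every tail library lay above every intact library. Their calls held in all 15 alternatives.

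SMED30029780 had the smallest p among the increases. Its levels were 2.74, 2.52 and 2.79 CPM in intact worms and 20.01, 21.1 and 17.1 CPM in tails (log2 ratio 2.85 with SE 0.13, adjusted p 6.20e-11 by edgeR). At 48 h it was at 6.36 to 6.93 CPM, between the other groups and overlapping neither.

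The strongest decrease at that level was in SMED30009662. Its intact libraries had 171, 49.9 and 53.8 CPM and its tail libraries 2.89, 3.29 and 1.11 CPM, so that even the lowest intact library was far above the tails. The log2 ratio of tails to intact was -5.23 with SE 0.52, and edgeR gave an adjusted p of 1.21e-06. Replicate 1 of the intact group set part of its size, since the value was -4.41 without that library. At 48 h the level was 8.54, 13.2 and 4.49 CPM, still below all intact libraries and higher than at 6 h by 1.84 on the log2 scale (edgeR adjusted p 0.0177).

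Some decreases were smaller and tighter. SMED30028104, the decrease with the smallest p, went from 16.4, 18.7 and 24.7 CPM to 0.818, 0.610 and 0.711 CPM (log2 ratio -4.81 with SE 0.19, adjusted p 7.61e-12 by edgeR). SMED30029487 went from 25.4, 21.6 and 27.0 CPM to 1.83, 1.72 and 1.63 CPM (-3.84 with SE 0.18, adjusted p 6.20e-11 by edgeR). In both, the 3 tail libraries were nearly level with one another. At 48 h they had come part of the way back, to 3.92 to 5.94 CPM and 6.99 to 9.45 CPM. Their log2 differences between 48 h and 6 h were 2.83 and 2.1998 (edgeR adjusted p 1.61e-08 and 1.45e-07).

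SMED30026811 had 84.9, 127 and 60.6 CPM in intact worms and 6.76, 6.92 and 13.2 CPM in tails, 10.2-fold lower. SMED30017714 had 36.6, 46.6 and 47.6 CPM against 5.53, 10.1 and 8.44 CPM, 5.44-fold lower, and SMED30005046 had 56.1, 102 and 53.3 CPM against 15.6, 12.2 and 14.2 CPM, 5.03-fold lower. None of these 3 was called different between 48 h and 6 h tails (edgeR adjusted p 0.147 to 0.75).

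4 of the 8 strongest decreases varied together from library to library. SMED30031362 had 170, 244 and 177 CPM in intact worms and 2.42, 10.0 and 24.6 CPM in tails. SMED30016186 had 83.9, 95.02 and 89.9 CPM against 1.17, 5.08 and 10.4 CPM. SMED30001043 had 57.4, 67.9 and 62.5 CPM against 0.985, 3.09 and 7.55 CPM, and SMED30029471 had 52.2, 75.7 and 50.5 CPM against 0.742, 2.27 and 5.66 CPM. Their log2 fold changes were -3.996, -4.01, -4.02 and -4.37, with standard errors of 0.73 to 0.90 and edgeR adjusted p of 0.00106 to 0.00608. Among the tails, replicate 1 was lowest and replicate 3 highest in all 4. SMED30026811, described above, had its 6 h and 48 h tail libraries in the same order over a narrower range, so the order is not confined to these 4.

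Set against their own mean in intact worms, the 4 transcripts stood at 1.23% to 1.57% in replicate 1 of the 6 h tails, 3.81% to 5.67% in replicate 2 and 9.52% to 12.5% in replicate 3. They moved as a block at 48 h as well, at 0.697% to 1.34%, 7.91% to 10.6% and 0.142% to 0.429% in the 3 libraries. The intact libraries lay between 84.9% and 127%. The 4 were grouped after their values had been seen, so their likeness is a description without a test. Without replicate 3 of the 6 h tails the log2 fold changes were larger, -4.98 for SMED30031362 and -5.29 for SMED30029471, and without replicate 1 they were -3.51 and -3.91. In 6 h mmp-1+ cells the same 4 stood at 1.58% to 6.44% of their mean in intact mmp-1+ cells.

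The decreases with the largest loss in CPM included 2 of small fold. SMED30010096 had 187, 156 and 172 CPM in intact worms and 87.0, 78.9 and 88.3 CPM in tails, 2.02-fold lower (log2 -1.02 with SE 0.09, adjusted p 2.43e-07 by edgeR), and it stayed at 82.4 to 85.1 CPM at 48 h. SMED30029763 had 551, 595 and 565 CPM against 458, 336 and 385 CPM, 1.45-fold lower (log2 -0.54 with SE 0.14, adjusted p 0.0143 by edgeR). Leaving out replicate 2 or replicate 3 of the tails ended the call (adjusted p 0.085 and 0.0559), and its 48 h level of 511 to 704 CPM overlapped the intact range.

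9 transcripts were detected in the intact libraries and nearly absent from the tails, with at least 30 counts in every intact library and at most 3 in every tail library. The reverse pattern was found in 0 transcripts. SMED30002331 had 722, 1739 and 530 counts in intact worms and none in any tail library. Against a floor of 3 counts per library, or 0.0451 CPM, it was at least 326-fold lower in tails. SMED30022326 had 134, 256 and 128 counts against none, and was at least 56.3-fold lower. SMED30029927 had 132, 274 and 69 counts in intact worms against 0, 3 and 0 in tails.

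The other 6 had 31 to 293 counts per intact library and 0 to 3 per tail library. In 48 h mmp-1- tails the mean level of SMED30002331 was 0.0205 ± 0.0178 CPM, and that of SMED30022326 was 0.0681 ± 0.0411 CPM (SD, n = 3 each). In mmp-1+ cells SMED30002331 went from 21.6 ± 3.12 CPM in intact worms to 0.0143 ± 0.0247 CPM at 6 h (SD, n = 3 each), so it was near 0 in the tails of both gates. The number of such transcripts turned on single libraries. It was 18 without replicate 2 of the tails, 15 without replicate 3 of the tails and 15 without replicate 3 of the intact worms. The reverse count was 1 without replicate 3 of the tails and 2 without replicate 2 of the intact worms.

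Some of the most abundant transcripts changed little. SMED30032887 had 113151, 101002 and 140004 CPM in intact worms and 130518, 134408 and 114048 CPM in tails, so the groups overlapped. Its log2 fold change was 0.10 with a 95% interval of -0.19 to 0.39. SMED30007704 had 19783, 25580 and 16744 CPM against 22692, 22930 and 23128 CPM, with an interval of -0.12 to 0.41. SMED30035193 had 5959, 7217 and 6025 CPM against 7853, 6008 and 7436 CPM, with an interval of -0.10 to 0.40. These 3 had the highest mean CPM among transcripts whose interval lay within -0.5 and 0.5. Of the 7467 tested transcripts with an average of at least 4 on the log2 CPM scale, 5771 had an interval that narrow. Of the same 7467, 708 were called higher and 305 lower, and a called transcript can also have a narrow interval. The average includes the tail libraries, so a limit on it can favour increases over decreases.

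The mmp-1+ cells of the same times share no library with this comparison. In them 812 transcripts were called higher in 6 h tails than in intact worms, 2.58% of those tested, and 1239 lower, 3.94%. Of the increases, 647 were called in both gates, which is 45.1% of the mmp-1- list and 79.7% of the mmp-1+ list. Of the decreases, 916 were called in both, 58.3% and 73.9% of the lists. No transcript was called in opposite directions. The change in mmp-1+ cells had the same sign for 1405 of the 1434 mmp-1- increases and 1534 of the 1570 decreases, against 71.8% of all tested transcripts. The median log2 fold change of the mmp-1- increases was 0.56 there and 0.40 in the positive gate, and that of the decreases was -0.83 and -0.70. Since these lists were chosen in mmp-1- cells, the smaller medians in mmp-1+ cells are a description. Whether libraries of the same replicate number in the 2 gates came from the same worms is not stated in the labels.

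**Figure D4:**
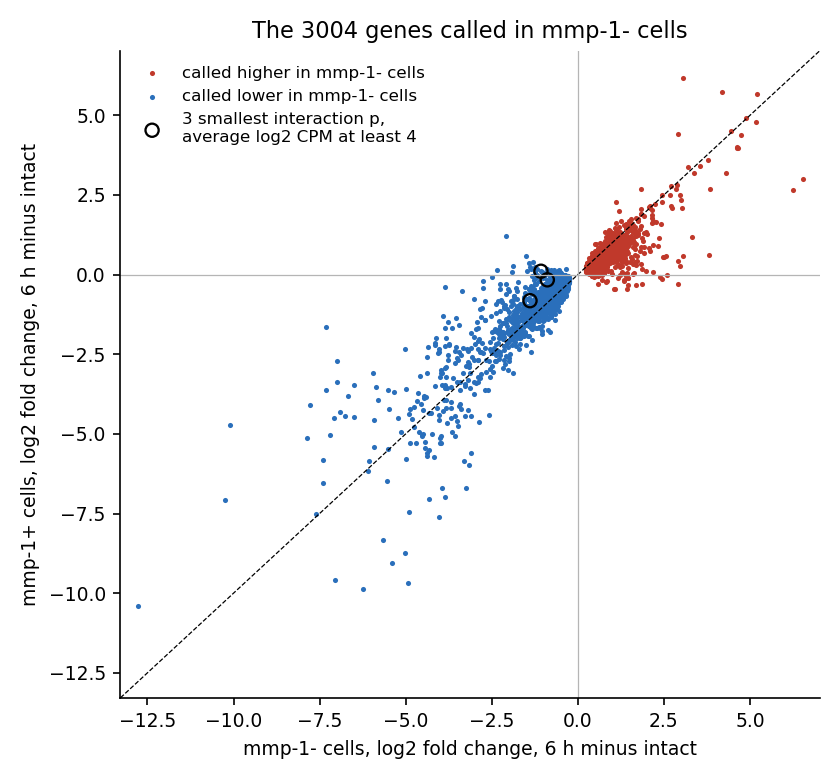
For the 3004 transcripts called in mmp-1- cells, the log2 fold change of 6 h tails minus intact is plotted for mmp-1- cells (horizontal axis) and mmp-1+ cells (vertical axis), with the line of equality dashed. Of the 1434 increases (red), 1405 lie above 0 in mmp-1+ cells, and of the 1570 decreases (blue), 1534 lie below 0; circles mark SMED30034181, SMED30028960 and SMED30027428.

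The difference between the gates was tested directly by the interaction of gate and time. edgeR called 0 transcripts, or 0%, with 926 of 31435 at an unadjusted p under 0.05, or 2.95%, and a smallest adjusted p of 0.522. limma with voom also called 0, and DESeq2 called 11. At 6 h, same-numbered libraries of the 2 gates deviated together (Pearson correlations of 0.530, 0.624 and 0.132), and in intact worms the correlations were -0.052, 0.043 and 0.161. When the gates were paired by number within each time point, a fit added after these values were seen, edgeR again called 0, with 1405 at an unadjusted p under 0.05 and a smallest adjusted p of 0.246. The missing calls do not show equal responses. Of the 3004 called transcripts, 2180, or 72.6%, had a 95% interval of the difference between the gates within -1 and 1 on the log2 scale, and 1141 within -0.5 and 0.5. With the gates paired these counts were 2241 and 1374.

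All 11 transcripts called by DESeq2 had a more negative change in mmp-1- than in mmp-1+ cells. They include the 3 with the smallest interaction p in edgeR among those of at least 4 on the log2 CPM scale. SMED30034181 had 36.4, 32.5 and 34.7 CPM in intact and 12.9, 12.7 and 14.0 CPM in 6 h tail mmp-1- cells, a log2 ratio of -1.39 with SE 0.08 and an adjusted p of 1.78e-09 by edgeR. In mmp-1+ cells it went from 31.0 ± 2.14 to 17.6 ± 1.19 CPM, a change of -0.82 (SD, n = 3 each). The difference of the changes was -0.57, with a 95% interval of -0.81 to -0.33 and an edgeR adjusted p of 0.545.

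SMED30028960 fell from 33.9, 37.95 and 32.4 CPM to 19.3, 19.4 and 17.7 CPM in mmp-1- cells (log2 ratio -0.89 with SE 0.11, adjusted p 2.77e-05 by edgeR). In mmp-1+ cells its levels were 51.5 ± 7.89 and 45.9 ± 0.959 CPM, a change of -0.17 (SD, n = 3 each; edgeR adjusted p 0.486). SMED30027428 fell from 19.3, 23.4 and 20.2 CPM to 9.12, 11.6 and 9.14 CPM in mmp-1- cells (-1.07 with SE 0.20, adjusted p 0.00112 by edgeR), while its mmp-1+ levels were 56.1 ± 19.7 and 60.3 ± 3.63 CPM (SD, n = 3 each; change 0.10, edgeR adjusted p 0.836). The edgeR adjusted p of the differences were 0.812 and 0.95. At 48 h these last transcripts were higher in mmp-1+ than in mmp-1- cells, by 1.02 and 1.91 on the log2 scale. SMED30034181 was not called there (0.22, edgeR adjusted p 0.183).

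At the other end were 4 called transcripts chosen because their changes were nearly equal in the gates, so that likeness is no separate result. SMED30017226 had 37.3, 40.4 and 41.1 CPM in intact and 49.1, 51.3 and 49.4 CPM in 6 h tail mmp-1- cells, and its log2 fold change was 0.33 in each gate. SMED30022769 had 81.8, 79.4 and 75.8 CPM against 57.6, 63.5 and 60.3 CPM, and changed by -0.38 in each gate. SMED30011221 changed by 0.30 and SMED30019754 by -0.27 in each. The widest 95% interval of the difference among the 4 was that of SMED30022769, from -0.304 to 0.302. These are small changes, and their calls in mmp-1- cells were lost under 4 to 10 of 15 alternatives, with adjusted p up to 0.328.

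Because the negative gate can hold some RNA of mmp-1+ cells, the level of transcripts that mark the positive gate was followed in each library. The list was drawn from 48 h libraries, which this comparison does not use, and holds the 206 transcripts called at least 4-fold higher in mmp-1+ than in mmp-1- cells there with groups that did not overlap. Their summed level was 6681, 10780 and 6179 CPM in the intact mmp-1- libraries and 7801, 6975 and 11622 CPM in the 6 h tail mmp-1- libraries. It was 75857 to 181362 CPM in intact and 165846 to 217881 CPM in 6 h tail mmp-1+ libraries. The mmp-1- libraries were thus far below the mmp-1+ libraries but not at 0, and 1 library in each mmp-1- group, intact replicate 2 and tail replicate 3, stood above its group.

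The tail mean of the summed level was 1.12 times the intact mean, and the groups overlapped. Of the 206, 3 were called higher and 8 lower in mmp-1- tails at 6 h, 5.34% together against 9.56% of all tested transcripts, and their median log2 fold change was 0.044. SMED30019680, one of those with the most counts, had 50.7, 988 and 40.8 CPM in intact and 515, 548 and 1430 CPM in tail mmp-1- libraries, with a log2 fold change of 1.21 (edgeR adjusted p 0.439). SMED30019930 had 23.0, 1106 and 12.4 CPM against 452, 556 and 1493 CPM (1.13, edgeR adjusted p 0.574). SMED30007813, SMED30019357 and SMED30005188, also among those with the most counts, changed by 1.38, 0.86 and 0.80 (edgeR adjusted p 0.294 to 0.433). The level of each of these transcripts in intact replicate 2 was higher than in 2 of the 3 tail libraries. The ratio of 1.12 and the median of 0.044 therefore do not show an equal level of each listed transcript. Without intact replicate 2 and tail replicate 3, 1992 transcripts were called in all and 906 of them higher, and each of the 8 strongest increases and decreases kept its call. In the libraries left, SMED30019680 had 50.7 and 40.8 CPM in intact worms and 515 and 548 CPM in tails. That fit therefore did not even out the listed transcripts. How far RNA of mmp-1+ cells entered the calls was not tested.

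**Figure D5:**
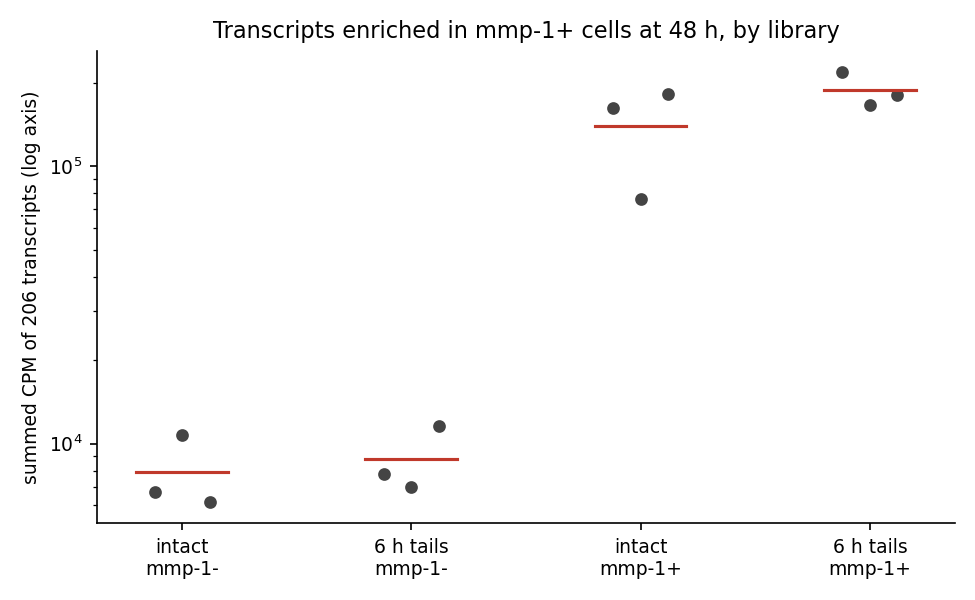
The summed CPM of the 206 transcripts enriched in mmp-1+ cells at 48 h is shown on a log axis for each library (points) with the group mean (red bar), for intact worms and 6 h tails in each gate. The 6 mmp-1- libraries lie between 6179 and 11622 CPM and the 6 mmp-1+ libraries between 75857 and 217881 CPM.

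The named transcripts were also looked up in 4 spatial tissue sections (Slide-seqV2, a bead array that counts RNA molecules by position). These offer a separate readout of the step from 6 h to 48 h, in all cells and not in a gate. Each section cut through a block in which 8 to 9 tail fragments surrounded 1 intact animal. There was 1 block per time point with 2 sections each, so no test was made. The sections held 10863941 and 13792997 molecules at 6 h and 21234845 and 18695274 at 48 h. The 35 named transcripts other than those found in intact worms only were followed. Of these, 20 were called between 48 h and 6 h tails in the mmp-1- cells, a comparison that called 9.75% of all tested transcripts. The 35 were named by values in the same 6 h libraries, so their share of calls depends on that choice. For 11 of the 20, both 48 h sections lay on the same side of both 6 h sections as in the sorted cells, for 6 they lay on the opposite side, and for 3 the sections overlapped. The same look-up was made for tested transcripts with at least 100 molecules over the 4 sections, of which 63.9% had 48 h and 6 h sections that did not overlap. Among the 2255 of them called between 48 h and 6 h in mmp-1- cells, 62.5% lay on the same side, 13.8% on the opposite side and 23.7% overlapped. The 11 of 20 named transcripts on the same side are not a larger share than that. The 6 of 20 on the opposite side are a larger share than 13.8%.

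SMED30034500 had 92.8 and 129 CPM in the 6 h sections and 45.4 and 55.0 CPM at 48 h, lower at 48 h as in the sorted cells. SMED30002663 had 155 and 183 CPM against 59.3 and 57.9 CPM, again with the lower values at 48 h. SMED30002813 had 5.89 and 9.28 CPM at 6 h and 34.8 and 55.7 CPM at 48 h, and SMED30029487 had 2.02 and 2.03 CPM against 9.61 and 9.20 CPM, both higher at 48 h as in the sorted cells. SMED30028552 went the other way, with 16.02 and 26.6 CPM at 6 h and 9.32 and 13.4 CPM at 48 h, while it rose in the sorted cells. The others on the opposite side were SMED30015528, SMED30013692, SMED30020317, SMED30002262 and SMED30034181. All were higher at 48 h in the sections and lower at 48 h in the sorted cells. SMED30013692 had 324 and 405 CPM in the 6 h sections and 473 and 539 CPM in the 48 h sections. SMED30031362, one of the 4 transcripts that varied together, had 25.4 and 17.4 CPM at 6 h and 0.518 and 1.55 CPM at 48 h in the sections. In sorted cells its 6 h and 48 h tails overlapped. SMED30029471, SMED30001043 and SMED30016186 were lower in the 48 h sections too. The sections include the intact animal, whose share of the molecules was not measured, so a step in the tails alone cannot be read from them. SMED30002331 gave 4 and 2 molecules in the 6 h sections and 0 and 1 in the 48 h sections, in which the intact animal was included.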

How the data were processed

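Raw counts per identifier were deposited by the authors, made per the submitters' processing notes with STAR 2.7.3a and RSEM (no version listed), and no annotation is named there. The libraries are not stranded, so overlapping and antisense transcripts cannot be told apart. Reads that mapped to more than 1 place were counted apart from the genes, so near-identical copies may lose reads. Such reads were 5.81% to 6.28% of the reads in the 6 libraries. They passed 10 cDNA and 12 library PCR cycles without molecular identifiers, so the intervals cover spread between libraries and not independent molecules. P-values measure the spread between 3 biological replicates per group.

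edgeR 4.0.16 (R 4.3.3) was fitted to all 18 sorted-cell libraries with 6 group means, filterByExpr, TMM and quasi-likelihood F tests, adjusted over all 31435 tested transcripts. The standard error is the log2 fold change divided by the square root of F. Identifiers under the count filter numbered 4600. The 6 libraries had TMM factors of 1.06 to 1.16, and the common biological coefficient of variation was 0.152. No pair of replicates held identical values. DESeq2 1.42.0, limma 3.58.1 with voom, other scalings, no filter, fits of the compared groups, a replicate block and each library left out served as alternatives. The scripts were tested on simulated data. Section files hold UMI counts per bead deposited by the authors, summed per section here. Any 2 sections shared 3 to 5 bead barcodes.

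Transcripts were named by a rule. The first were the 8 largest changes each way among called transcripts of at least 4 on the log2 CPM scale. The 4 largest CPM differences each way among called transcripts came next. In both of these sets the rule asked for groups that did not overlap. Also named were the 3 smallest p each way, those detected in 1 group only and the 3 highest with an interval within 0.5. The last were the 3 least and 4 most alike in both gates. The members and lists were chosen with earlier results of these data known. Lists of known genes could not be applied, as no names were paired with identifiers. 2 single-cell samples of the series were not used here.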

Additional observations from a re-analysis of the deposited data

How the results depend on the processing

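The 3004 calls became 1646 (682 higher, 964 lower) when edgeR was fitted to the compared groups alone, a fit with fewer libraries, and 2935 (1410 higher, 1525 lower, 305 and 629 at least 2-fold, 0 in the interaction) with a replicate block. Same-numbered libraries of the 2 groups did not deviate together (Pearson correlations of 0.070, -0.340 and -0.347), so the block is no paired analysis. Total-count scaling gave 863 increases. The median log2 fold change of all tested transcripts moved from 0.0042 to -0.027 under that scaling. With each library left out, calls ranged from 2064 to 2967, increases from 945 to 1565, decreases from 1119 to 1402, increases of at least 2-fold from 220 to 350, such decreases from 568 to 670, and interaction calls stayed at 0. The low ends came without replicate 2 of the 6 h tails, except for the decreases of at least 2-fold, where it was replicate 3. Transcripts detected in intact worms only ranged from 9 to 18 and in tails only from 0 to 2. With limits of 10 and 100 counts they numbered 8 and 0. DESeq2 called 11 transcripts in the interaction. Without the library of each group with the highest level of sort-enriched transcripts, a choice made after seeing the data, edgeR called 1992 transcripts, 906 of them higher. The causes were not tested. Over the 14 alternatives other than that choice, 1326 calls, 44.1%, were kept in every one. DESeq2 gave no adjusted p for 1 call, SMED30029471, which was counted as kept there. No transcript that is named here and was called changed direction under any alternative that gave it an adjusted p.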
